A study of Mus musculus with 2 samples.

Results

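The acyl-CoA synthetases described here are 10 genes of the deposited expression table, 5 of the long-chain family (Acsl1, Acsl3, Acsl4, Acsl5 and Acsl6), 3 of the short-chain family (Acss1, Acss2 and Acss3) and 2 of a further family (Acsf2 and Acsf3). They were taken by symbol, and each of the 10 was found once among the 23361 genes with values. RNA-Seq was performed on 1 library of brown preadipocytes (D0) and 1 library of brown adipocytes after differentiation (D7), both grown from interscapular brown adipose tissue of newborn C57BL/6 mice. Per the labels, the cells were first grown with 20% serum, and those of both stages then spent 4 days in medium that held 10% serum, T3 (1 nM) and insulin (0.1 μM), after which D0 was taken. For D7, indomethacin (0.125 mM), dexamethasone (2 μg/ml) and IBMX (0.5 mM) were present for the first 2 days and the cells then went back to the medium without them. The methods of the study describe a culture from 4 newborn mice of either sex that was immortalized with large T, and other insulin and dexamethasone concentrations, while the labels name primary cultures. The 2 libraries thus differ in stage, days in culture and exposure to the inducers together, and these cannot be told apart.

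A fatty acid that enters a cell is chemically inert until an acyl-CoA synthetase couples it to coenzyme A, at the cost of ATP. The acyl-CoA then goes to oxidation in mitochondria, to triglycerides and phospholipids, or to elongation, and acetate and other short acids are activated in the same way by the short-chain enzymes. In brown adipocytes these reactions feed the burning of fatty acids for heat and the filling of lipid droplets.

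At D7, 6 of the 10 synthetases were higher by at least 2.0-fold and 0 were lower by that much. Of all 14986 genes above 0 in both libraries, 18.5% were higher and 13.2% were lower by this measure, and 27.6% of those with an FPKM of at least 1 in either library differed in 1 direction or the other. By at least 4.0-fold, 6 synthetases were higher against 8.08% of genes, and 0 were lower against 3.86%. By at least 10-fold, 4 (Acsl1, Acss1, Acss2 and Acss3) were higher against 3.14%. The 6 were Acsl1 of the long-chain family, all 3 short-chain genes, and both Acsf genes. Acsl3, Acsl4, Acsl5 and Acsl6 stayed within 2.0-fold. Each stage had 1 library, so no difference has a replicate check and none was given a p-value. The 95% intervals given with each ratio are exact and cover counting error only, and they compare the 2 libraries rather than the stages. The median log2 ratio of D7 to D0 was 2.46 over the 10 genes and 0.015 over all genes with a ratio.

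Values are FPKM as deposited, which are fragments scaled to transcript length and to the size of the library. The spacing of low values in genes with a single exon gave the size used in that scaling, 21471074 fragments at D0 and 18267192 at D7. A single fragment therefore stood for more FPKM at D7, by a factor of 1.18. Fragment numbers of genes with several transcripts are approximate. Of the adipocyte markers, 7 of 8 were higher at D7 and the other, Lep, was listed at 0 at D0 only. Among the 8 brown markers, 3 were higher, 4 (Ucp1, Cidea, Cox8b and Elovl3) were listed at 0 at D0 only, and Prdm16 had a ratio of 1.22. The 6 preadipocyte markers went both ways. Dlk1 and Cd34 were higher at D7, with ratios of 10.8 and 8.29, Thy1 and Pdgfrb were lower, with 0.469 and 0.340, and Pdgfra and Ly6a stayed within 2.0-fold, with 0.973 and 0.741. Macrophage genes were also higher, 10 of 11 of them, and their summed FPKM was 156 at D0 and 584 at D7. The part of macrophages in the results below was not tested, and in a bulk sample fewer cells of a type and less RNA per cell cannot be told apart. The summed FPKM of endothelial genes was 1.58 and 2.62 and that of erythroid genes was 0.0265 and 0.0312, with Hba-a1, Slc4a1 and Tie1 listed at 0 in both libraries. Of skeletal muscle genes, Acta1 measured 45.4 FPKM at D0 against 1.73 FPKM at D7, Myh1 rose from 0.0239 to 0.563 on about 3 and 59 fragments, and Ckm and Myod1 were listed at 0 in both. The summed FPKM of neuronal and glial genes was 103 at D0 and 21.7 at D7, mostly from Tubb3.

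Acsl1, the main long-chain synthetase of adipocytes, rose from 3.89 FPKM at D0 to 500.4 FPKM at D7. These values rest on about 310 and 33961 fragments. Its ratio was 129 (95% interval 115 to 145), the highest of the long-chain family. At D0 it ranked 8820th by FPKM among all genes of the table, and at D7 it ranked 172nd. A ratio of at least 100-fold was reached by 83 genes, 0.554% of those above 0 in both libraries. The gene (ENSMUSG00000018796.13) lies on the plus strand of chromosome 8 of mm10 from 46471037 to 46536051 in the GENCODE M21 annotation, and the deposited transcript NM_007981 has 21 exons. The gene of the opposite strand within it, Gm45244, shares 0 bases with the exons of this transcript.

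Promoter windows of 3 synthetases that rose are shown beside that of 1 that did not, so that the sequences at their start sites can be compared. RefSeq windows of GRCm38.p6, from 250 bases before to 50 bases after a start site, were found for 9 of the 10 genes, with 12 start sites. Acss3 had none in the table. Below are the windows of Acsl1 (chr8:46470787-46471086, plus strand), Acss2 (chr2:155517793-155518092, plus strand), Acss1 (chr2:150668191-150668490, minus strand) and, as the gene that did not rise, Acsl4 (chrX:142390486-142390785, minus strand). All are written 5′ to 3′, and capitals mark the GC box GGGCGG and the CCAAT box on either strand.
Acsl1: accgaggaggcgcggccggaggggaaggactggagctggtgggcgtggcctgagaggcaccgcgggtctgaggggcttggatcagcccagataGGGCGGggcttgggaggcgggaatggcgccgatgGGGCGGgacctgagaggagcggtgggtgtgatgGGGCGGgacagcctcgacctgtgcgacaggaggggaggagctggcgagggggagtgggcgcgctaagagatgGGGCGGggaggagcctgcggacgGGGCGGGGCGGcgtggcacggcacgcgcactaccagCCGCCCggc
Acss2: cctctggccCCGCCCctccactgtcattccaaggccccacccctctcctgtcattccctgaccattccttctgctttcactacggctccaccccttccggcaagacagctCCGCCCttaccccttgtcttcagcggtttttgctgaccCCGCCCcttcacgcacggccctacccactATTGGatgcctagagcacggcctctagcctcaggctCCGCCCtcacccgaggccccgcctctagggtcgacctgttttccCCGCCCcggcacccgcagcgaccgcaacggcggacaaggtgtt
Acss1: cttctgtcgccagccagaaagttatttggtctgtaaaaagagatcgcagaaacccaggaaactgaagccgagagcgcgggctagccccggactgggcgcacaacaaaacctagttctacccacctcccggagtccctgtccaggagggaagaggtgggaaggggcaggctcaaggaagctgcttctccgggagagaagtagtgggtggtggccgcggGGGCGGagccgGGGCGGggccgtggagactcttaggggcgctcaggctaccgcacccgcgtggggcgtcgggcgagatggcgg
Acsl4: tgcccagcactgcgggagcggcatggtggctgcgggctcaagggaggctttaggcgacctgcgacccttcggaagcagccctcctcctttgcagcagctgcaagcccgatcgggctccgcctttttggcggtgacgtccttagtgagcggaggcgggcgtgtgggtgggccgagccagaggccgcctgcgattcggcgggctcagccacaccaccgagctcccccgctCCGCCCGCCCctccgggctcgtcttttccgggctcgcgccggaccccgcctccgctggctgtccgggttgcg

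The Acsl1 window held 7 GC boxes, of which the pair just after the start site overlap by 1 base. The Acss2 window held 5 and a CCAAT box at position -73, and those of Acss1 and Acsl4 held 2 each. The 2 of Acsl4, at -22 and -18, overlap. GGGCGG was found in 9 of the 12 windows, which belong to 7 of the 9 genes, and in 35.7% of the 32851 windows of all genes. Windows of 1 gene are not independent. Acsf2 and Acsl3 held 5 each, and those at -130, -125 and -120 in Acsf2 overlap in turn. Acsl5 and Acsf3 held none and had 1 CCAAT box each. CCAAT was found in 7 of 12 windows, from 6 genes, and in 37.4% of all windows. AGGTCA, the core of many nuclear receptor sites, was found in 1 of 12 windows (of Acsl6) and in 16.3% of all windows. TATAAA was in 0 of 12 and in 13.6% of all windows, and the E-box CACGTG in 0 of 12 and in 7.15%. Members higher at D7 and members that were not both carried GC boxes. The GC content of the 4 windows shown was 74%, 65%, 64.3% and 71.7% in the order above, beside a median of 52.7% over all windows. Their ratio of observed to expected CpG was 0.859, 0.741, 0.769 and 0.857, beside a median of 0.384. The second start site of Acsl1, 19929 bases downstream, had 2 CCAAT boxes, 0 GC boxes and a CpG ratio of 0.214. The deposited value is for the whole gene, so the share of each start site in the level of Acsl1 is not known from it.

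**Figure D1:**
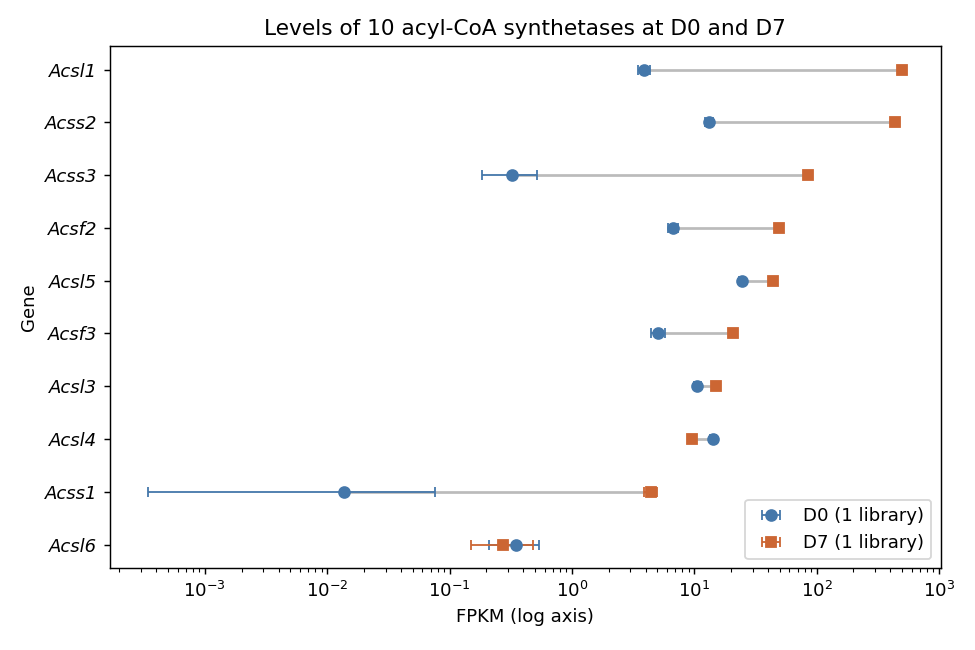
FPKM (log axis) of the 10 acyl-CoA synthetases in the D0 library (circles) and the D7 library (squares), with exact 95% Poisson intervals on the approximate fragments. Genes are ordered by their level at D7, from Acsl1 (500.4) to Acsl6 (0.273), and the squares of Acsl4 and Acsl6 alone lie to the left of their circles.

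The other long-chain genes showed a different picture. Acsl5, which is found on mitochondria and endoplasmic reticulum, was the most abundant synthetase at D0 with 24.4 FPKM and measured 43.9 FPKM at D7. Its ratio of 1.80 (1.70 to 1.90) lay above 1 by counting error but did not reach 2.0. Acsl3, which works on endoplasmic reticulum and growing lipid droplets, measured 10.6 FPKM at D0 against 15.2 FPKM at D7, a ratio of 1.44 (1.31 to 1.57). Acsl4 prefers arachidonic acid and other polyunsaturated fatty acids. It measured 14.2 FPKM at D0 against 9.57 FPKM at D7, and its ratio of 0.673 (0.619 to 0.731) lay below 1 by counting error without reaching 0.5. Acsl6, known mainly from brain, where it handles docosahexaenoic acid, measured 0.350 FPKM at D0 against 0.273 FPKM at D7, from about 19 and 13 fragments. The interval of its ratio of 0.778, from 0.365 to 1.72, includes 1, and no change of Acsl6 was detectable at this depth.

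Acsl1 had the second lowest level of the family at D0, where Acsl5 was 6.27 times higher. At D7 Acsl1 was 11.4 times higher than Acsl5. The sum of Acsl3, Acsl4, Acsl5 and Acsl6 was 49.5 FPKM at D0 and 68.9 at D7, while the sum of all 5 went from 53.4 to 569. Acsl3 (ENSMUSG00000032883.15, plus strand of chromosome 1, 78657825 to 78707743) shares 206 exon bases, 5.22% of its transcript, with Utp14b on the same strand, which had an FPKM of 1.40 and 1.83. Acsl5 (ENSMUSG00000024981.6, plus strand of chromosome 19, 55251938 to 55297720) shares 404 exon bases, 9.52% of its transcript, with Zdhhc6 on the opposite strand, at an FPKM of 17.5 and 21.6. The library preparation marked strand by removing the second cDNA strand, but the sources used here do not say whether counting used it, so reads of Acsl5 and Zdhhc6 may not have been told apart. Reads in the bases that Acsl3 shares with Utp14b cannot be assigned by strand in either case. Acsl4 (ENSMUSG00000031278.12) lies on the minus strand of chromosome X from 142317993 to 142390535 and is overlapped by no other annotated gene. Acsl6 (ENSMUSG00000020333.17) lies on the plus strand of chromosome 11 from 54303798 to 54364756 and has 15 annotated transcripts, the most of the 10 genes. It shares 202 exon bases, 7.40% of its transcript, with Gm12224 on the opposite strand. With its longest coding transcript (5807 bp), its fragments would be about 42 at D0 and 28 at D7, and the interval of its ratio 0.468 to 1.29.

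The short-chain family was higher throughout. Acss2, the cytosolic and nuclear enzyme that makes acetyl-CoA from acetate, rose from 13.2 FPKM at D0 to 437 FPKM at D7, on about 781 and 21935 fragments. Its ratio was 33.1 (30.8 to 35.5), and its rank by FPKM went from 5044th to 199th of all genes. Acss3, a mitochondrial enzyme with a preference for propionate, rose from 0.327 FPKM at D0 to 85.1 FPKM at D7. Its ratio of 260.4 (163 to 463) was the 45th highest of the 14986 genes. Acss1, the mitochondrial enzyme for acetate, rose from 0.0136 FPKM at D0, which is about 1 fragment, to 4.40 FPKM at D7, from about 276 fragments. Its ratio was 322, with an interval from 57.8 to 12870.5 that is wide because of the single fragment at D0. For this gene, 3 fragments at D0 would be 0.0406 FPKM. That interval holds the ratios of Acss3 and Acsl1, so the place of Acss1 among these 3 ratios is not known. The intervals of Acss3 and Acsl1 do not overlap. With 1 added to each FPKM, however, Acss3 had a ratio of 64.9 and Acsl1 of 102.6. With 0.1 added to each FPKM the ratio of Acss1 was 39.6, below the 125.5 of Acsl1 and 199.7 of Acss3, and with 1 added it was 5.32. The level of Acss1 at D7 was the second lowest of the 10 genes, and that of Acss2 was 99.4 times higher.

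Acss1 (ENSMUSG00000027452.11, minus strand, 150618105 to 150668500) and Acss2 (ENSMUSG00000027605.18, plus strand, 155517948 to 155585724) both lie on chromosome 2. Acss2 shares 197 exon bases with Ggt7 on the opposite strand, at an FPKM of 8.39 and 3.36, and 113 with its antisense transcript Acss2os. Whether reads of Ggt7 or Acss2os were counted for Acss2 was not tested. Acss3 (ENSMUSG00000035948.13) lies on the minus strand of chromosome 10 from 106933517 to 107123668. The transcript named for Acss3 in the table is 2494 bp long and the longest coding one is 4696 bp. With the longer, the fragments at D0 would be about 32 in place of 16, and the interval of the ratio 183 to 377.

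Both Acsf genes were higher at D7. Acsf2, a mitochondrial enzyme with a preference for medium-chain acids, rose from 6.72 FPKM at D0 to 49.2 FPKM at D7, a ratio of 7.33 (6.62 to 8.14). Acsf3, which activates malonate in mitochondria, rose from 5.08 FPKM at D0 to 20.8 FPKM at D7, a ratio of 4.11 (3.53 to 4.79). Acsf3 had the lowest ratio of the 6 higher genes and Acsl5, at 1.80, the highest of the other 4. Acsf2 (ENSMUSG00000076435.3) lies on the minus strand of chromosome 11 from 94557102 to 94601871, and Acsf3 (ENSMUSG00000015016.8) on the plus strand of chromosome 8 from 122775486 to 122817880. Gm20388, annotated on the same strand, overlaps the locus of Acsf3.

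**Figure D2:**
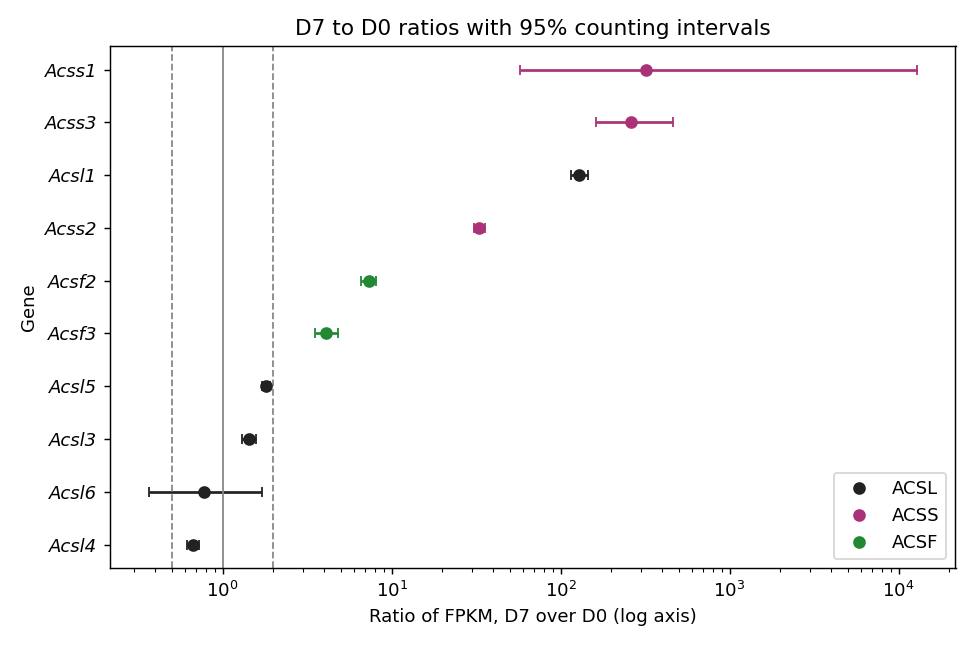
Ratio of FPKM at D7 to D0 (log axis) for each synthetase, with exact 95% Clopper-Pearson intervals for counting error between the 2 libraries. The solid line is at 1 and the dashed lines are at 0.5 and 2.0. The intervals of 6 genes lie wholly above 2.0, and that of Acsl6 includes 1.

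The levels of the 10 genes spread over several orders of magnitude. At D0, 7 of them lay between an FPKM of 3.89 and 24.4, and the other 3 were at or below 0.350. At D7, Acsl1 and Acss2 stood at 437 FPKM or above and the remaining 8 lay between 0.273 and 85.1. The order of the levels at D0, from the highest, was Acsl5, Acsl4, Acss2, Acsl3, Acsf2, Acsf3, Acsl1, Acsl6, Acss3 and Acss1. In this order Acsl4 and Acss2 could not be told apart by counting error, with a ratio of 1.08 (0.987 to 1.17), and neither could Acsl6 and Acss3 (1.07, 0.525 to 2.24). At D7 the order was Acsl1, Acss2, Acss3, Acsf2, Acsl5, Acsf3, Acsl3, Acsl4, Acss1 and Acsl6. All 9 pairs of neighbours at D7 had intervals above 1, the closest being Acsf2 over Acsl5 (1.12, 1.07 to 1.18). FPKM is corrected for length, which allows levels of different genes to be set side by side, but the spread between cultures behind these orders is unknown.

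**Figure D3:**
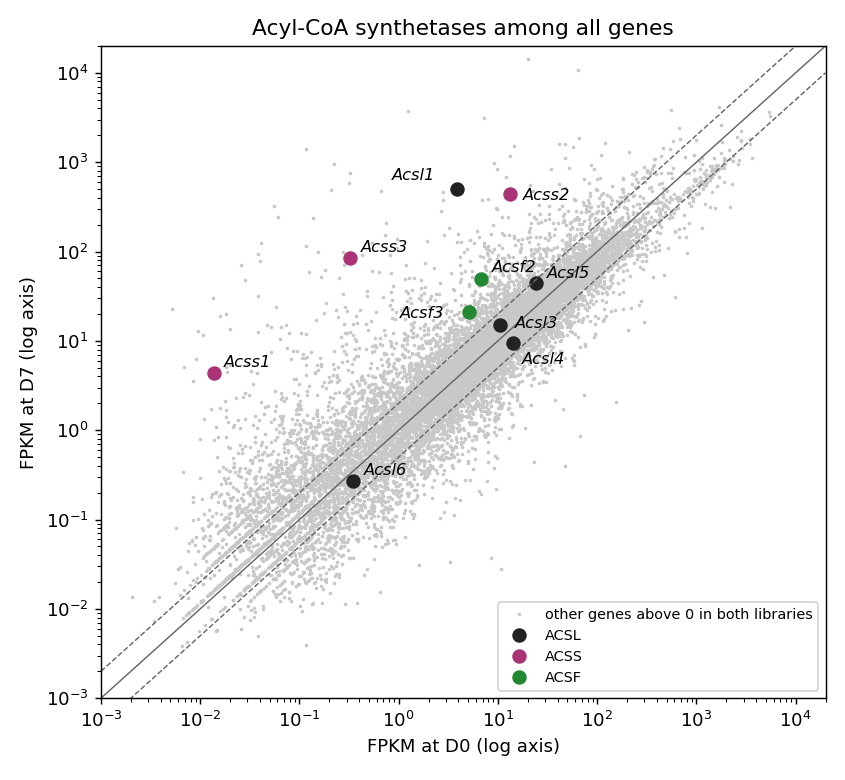
FPKM at D0 (x, log axis) and at D7 (y, log axis) for genes above 0 in both libraries, with the synthetases coloured by family. The solid line marks equal values and the dashed lines a 2.0-fold difference. Acsl3, Acsl4, Acsl5 and Acsl6 lie between the dashed lines and the other 6 lie above them.

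The summed FPKM of the 10 genes was 78.7 at D0 and 1166 at D7, 14.8 times higher. This was 0.0154% of the FPKM of all genes at D0 and 0.223% at D7. The makeup of the sum differed between the libraries. At D0, Acsl5 made up 30.9%, Acsl4 18.1%, Acss2 16.8% and Acsl3 13.4%, while Acsl1 made up 4.94%. At D7, Acsl1 made up 42.9% and Acss2 37.5%, together 80.4% of the sum against 21.7% at D0. Acsl3, Acsl4 and Acsl5 went from 62.4% of the sum to 5.88%, although their own summed FPKM was 49.1 at D0 and 68.6 at D7. The short-chain family made up 17.2% at D0 and 45.2% at D7.

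**Figure D4:**
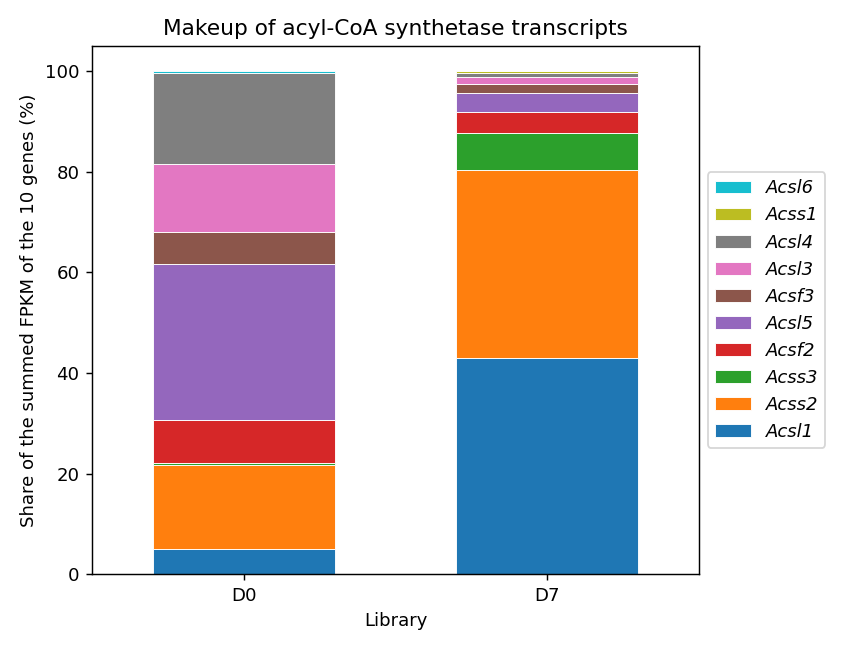
Share (%) of each gene in the summed FPKM of the 10 acyl-CoA synthetases, in the D0 and the D7 library. Acsl5 had the largest share at D0 (30.9%), and Acsl1 (42.9%) with Acss2 (37.5%) filled most of the D7 bar.

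The coding sequences of the 10 genes were compared for stretches that a read could share. The reads were 90 bases long and the authors allowed up to 5 mismatches. Over the coding sequences of the named transcripts, the closest stretch of 90 bases between any 2 of the 10 genes had 15 mismatches, between Acsl3 and Acsl4. It had 19 between Acsl1 and Acsl6 and between Acsl5 and Acsl6, 20 between Acsl1 and Acsl5, and 27 between Acss1 and Acss2. None of the 45 pairs had a stretch within 5 mismatches. Coding lengths were between 1491 bp for Acss3 and 2160 bp for Acsl3. Copies outside these 10 genes were not searched.

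Other genes that activate fatty acids were less uniform. Of 15 with values, 7 were above 0 in both libraries, and 1 of them was higher and 2 were lower by at least 2.0-fold. Their median log2 ratio was 0.42. The background for this list and those below is all genes with a ratio, of which 18.5% were higher and 13.2% lower. Such small counts do not set the other activating genes apart from that background. Slc27a1, a fatty acid transport protein with synthetase activity, rose from 3.70 FPKM at D0 to 28.4 FPKM at D7, a ratio of 7.67 (6.62 to 8.92). Acsbg1 had the lowest ratio, 0.118, on about 10 fragments at D0 and 1 at D7. Slc27a6 was the other lower gene and fell from 2.18 FPKM at D0 to 0.589 FPKM at D7. Its ratio of 0.271 (0.169 to 0.424) rests on about 108 and 25 fragments. For Slc27a5, the D0 library held about 1 fragment (0.0217 FPKM) and the D7 library 0, so it has no ratio. Aacs, which activates acetoacetate, had the highest level, with an FPKM of 46.2 and 81.7. Acsm3 and Acsm5, of the medium-chain family, were at 0 in the D0 library and reached 0.842 and 0.522 FPKM in the D7 library. Acsbg2, Acsm1, Acsm2, Acsm4 and Slc27a2 were listed at 0 in both libraries.

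Proteins that bind acyl-CoA came next in the path. Of 6 with a ratio, 3 were higher and 0 lower, with a median log2 ratio of 1.67. Dbi, the acyl-CoA binding protein, rose from 211 FPKM at D0 to 1307 FPKM at D7, a ratio of 6.21 (5.87 to 6.58). Scp2, a sterol and acyl-CoA carrier, had 50.4 and 284. Acbd3, a Golgi protein, had the lowest ratio of the list, 0.707.

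Genes for the mitochondrial use of acyl-CoA were higher in 11 of 13 cases and lower in 1, with a median log2 ratio of 2.73. Cpt1b, which moves long-chain acyl groups from coenzyme A to carnitine, rose from 1.25 FPKM at D0 to 34.7 FPKM at D7. Its ratio of 27.7 (21.9 to 35.5) was the highest of this list and below the 129 of Acsl1. Cpt1c was the gene lower by at least 2.0-fold, at a ratio of 0.430. Cpt1a stayed within 2.0-fold, with 36.4 FPKM at D0 against 23.1 FPKM at D7, a ratio of 0.634 (0.598 to 0.672). Hadhb and Acadvl, enzymes of β-oxidation, had the highest levels at D7, 511 and 386 FPKM, beside 500.4 for Acsl1.

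Genes for esterification, in which acyl-CoA is joined to glycerol, were higher in 7 of 13 cases and lower in 2, with a median log2 ratio of 1.76. Dgat2, which makes triglyceride from diglyceride, had the highest ratio, 133 (112 to 160), from 2.81 FPKM at D0 to 375 FPKM at D7. Agpat2, which acylates lysophosphatidic acid, had the highest level, at 14.5 and 1505 FPKM. Mogat2 had the lowest ratio, 0.0634, from 3.80 to 0.241. The other lower gene, Gpat2, had about 7 fragments at D0 and 1 at D7 and an interval that includes 1. Of the 10773 genes that measured 1 FPKM or more at both stages, the 3 nearest to Acsl1 by distance in log2 FPKM at D0 and D7 were Agt, Dgat2 and G0s2, at distances of 0.50, 0.63 and 0.93. Agt encodes angiotensinogen and G0s2 an inhibitor of triglyceride lipase. This likeness rests on 2 libraries.

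Genes of the cytosol that make or use acetyl-CoA and malonyl-CoA were higher in 8 of 10 cases and lower in 1, with a median log2 ratio of 3.10. Acly, which makes acetyl-CoA from citrate, rose from 121 FPKM at D0 to 1644 FPKM at D7. Its level was 9.14 times that of Acss2 at D0 and 3.76 times at D7. Scd1, the stearoyl-CoA desaturase, had the highest ratio, 166 (162 to 170.3).

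Acyl-CoA thioesterases, which reverse the reaction of the synthetases, were higher in 3 of 11 cases and lower in 1, with a median log2 ratio of 0.54. Beside the 18.5% higher and 13.2% lower of all genes, these small counts do not set the thioesterases apart. The summed FPKM of the list was 205 at D0 and 176 at D7, while that of the synthetases went from 78.7 to 1166. Acot4, a peroxisomal enzyme, had the highest ratio among those with at least 10 fragments, 6.44 (4.82 to 8.85). Acot7, an enzyme known mainly from neurons, had the lowest, 0.422 (0.386 to 0.460), and the highest level, with an FPKM of 72.1 at D0. Acot13 had 60.6 and 66.8. The 3 higher genes include Acot12, which had about 1 fragment at D0 and 6 at D7 and an interval that includes 1.

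Of 10 regulators of lipid genes, 7 were higher, 0 lower by 2.0-fold, and the median log2 ratio was 3.89. Pparg, the receptor that directs adipogenesis, and Srebf1, which directs fatty acid synthesis, had the highest levels, with an FPKM at D7 of 128 and 146. Mlxipl, the carbohydrate response factor ChREBP, had about 1 fragment at D0 and an FPKM of 30.5 at D7. Srebf2, which directs cholesterol synthesis, had the lowest ratio, 0.507 (0.481 to 0.533).

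**Figure D5:**
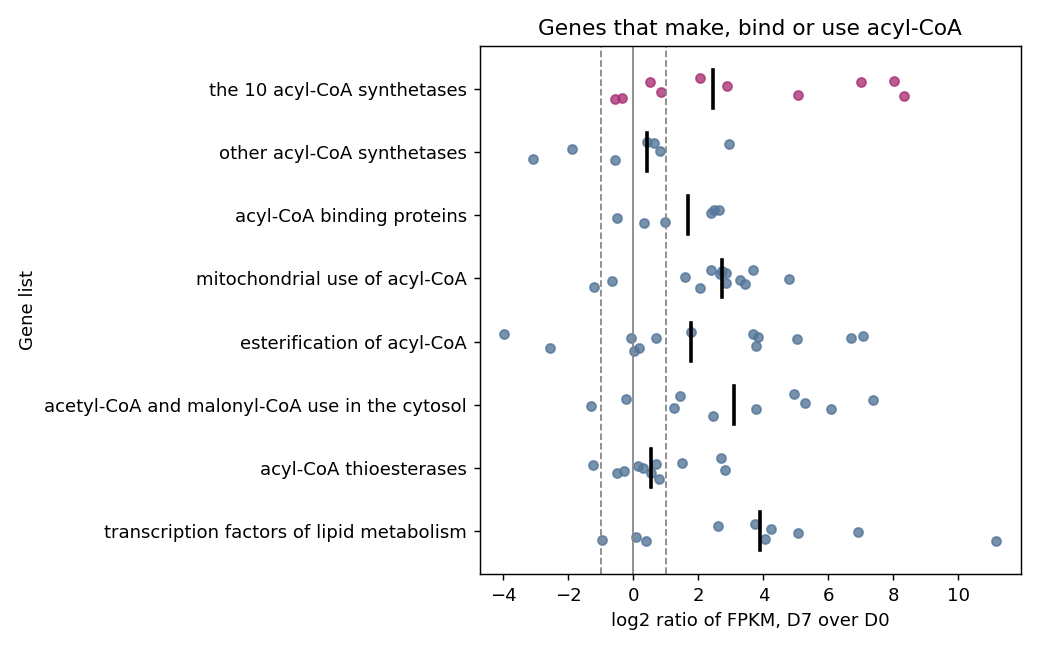
log2 ratio of FPKM at D7 to D0 for the genes of each list that were above 0 in both libraries, with 1 point per gene and a bar at the median. The solid line is at 0 and the dashed lines mark 2.0-fold. The 10 synthetases had a median of 2.46, and the medians of the other lists lay between 0.42 and 3.89.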

How the data were processed

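The authors removed reads with unknown, low-quality or adaptor bases, duplicate reads and rRNA reads. Removal of duplicates can lower the values of very abundant genes, which was not tested. Alignment used SOAP2 on mm10, while the processing notes of the submitters name Bowtie2. The deposited values are FPKM, computed by the authors for each gene in each of the 2 libraries. Of 27324 rows, 3963 held no value and were not used.

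FPKM at D7 was divided by FPKM at D0 wherever both exceeded 0, with nothing added and no rescaling. Calls needed a ratio of 2.0 or more, or of 0.5 or less, the fold that the study used. Here 2767 of 14986 genes were higher and 1980 lower, while the study reported more lower than higher genes at this fold. How the study treated values at 0 is not stated. Fragments were recovered from 603 single-exon genes (600 bp or longer), by the length correction (179 bp at D0, 182 bp at D7) and the denominator that made low values (at most 20 fragments) whole numbers, with a tolerance of 0.1. This held for 100% of 81 values at D0 and 89 at D7, and for 20% and 18.2% with shuffled lengths. For other genes the length of the RefSeq transcript listed in the table was taken, and where that was missing the longest one. Intervals are exact Clopper-Pearson intervals at 95%.

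All 10 members are named. Of each list, the 2 genes of highest FPKM and those of the highest and lowest ratio with at least 10 fragments are named, as well as the 3 genes nearest to Acsl1. Acsm3, Acsm5, Slc27a5, Slc27a6, Cpt1a, Acot12, Gpat2, single markers and genes listed at 0 were named after their values were seen. The members and lists were chosen with earlier results of these data known. Alternatives were pseudocounts of 0.1 and 1, TPM, 3 other scalings, a floor with division by the library median, filters at FPKM of 0.1 and 1, summing of rows with 1 symbol, a threshold of 4.0 and calls by the interval. On simulated data, 200 of 200 changed and 0 of 11013 unchanged genes were called, and intervals held the true ratio in 95.5% of 11213 genes. Spread between cultures cannot be estimated from 1 library per stage, so these figures do not give the rate of false calls between stages. Coordinates are those of GENCODE M21 on mm10 (GRCm38), and promoters those of RefSeq. Protein sequences were not used here, and some genes of the lists are counted but not reported here by name. Python 3.11.15, pandas 2.3.3, scipy 1.17.1, Biopython 1.88 and matplotlib 3.10.9 were used.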

Additional observations from a re-analysis of the deposited data

How the results depend on the processing

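The number of synthetases higher by at least 2.0-fold was 6 under 10 of the 12 alternatives. It was 5 with an FPKM of at least 0.1 required in both libraries, which leaves out Acss1, and 4 with an FPKM of at least 1, which also leaves out Acss3. The number lower was 0 under all 12. No paired analysis was possible because each stage has 1 library. Acss1 was most dependent on the pseudocount, with a ratio of 39.6 after adding 0.1 and 5.32 after adding 1, and Acss3 had 64.9 after adding 1. Setting FPKM under 0.01 to 0.01 and dividing by the library median multiplied each ratio above the floor by 0.783 (-0.35 on the log2 scale), to 100.8 for Acsl1, 25.9 for Acss2, 1.41 for Acsl5, 1.12 for Acsl3 and 0.527 for Acsl4. The other scalings moved ratios by at most 0.029 on the log2 scale.

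For the other acyl-CoA synthetases, that division turned the median to -0.35 and gave 3 higher and 3 lower genes. Adding 0.1 also gave 3 higher genes, and with either pseudocount, which brings in the genes at 0, their median was 0. The number lower in that list was 1 at a filter of 0.1 or a threshold of 4.0, and 0 after adding 1 or at a filter of 1. The median of acyl-CoA binding proteins was 0.96 and 0.91 after adding 0.1 and 1, and 0.62 with the division. Lower esterification genes numbered 1 with either pseudocount or a filter of 0.1 and 0 at a filter of 1, and their median was 2.70 after adding 0.1, 2.36 with the division and 2.72 with either filter. Genes of mitochondrial use that were lower numbered 2 with the division and 0 at a threshold of 4.0. For acetyl-CoA and malonyl-CoA use, the median was 2.44 at a filter of 1 and 0 genes were lower at 4.0. Higher thioesterases numbered 5 with the division and 1 at a filter of 1, and lower ones 0 at 4.0. Among the regulators, 1 was lower in TPM and with the division, 3 were higher at a filter of 1, and the median was 2.22 after adding 1, 3.16 at a filter of 0.1 and 1.48 at a filter of 1. The cause was not tested, beyond the fewer genes that a filter leaves. With 1 library per stage, depth limits mainly Acss1 and Acss3 at D0 and Acsl6 in both libraries.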
